A study of Mus musculus with 2 samples.

Results

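The receptors, signal carriers and response genes of interleukin 4 (IL-4) and interleukin 21 (IL-21) were read in germinal center B cells of the mouse spleen. The group holds 10 genes of the 30905 listed: the receptor chains Il4ra, Il21r and Il2rg, the transcription factors Stat3 and Stat6, the feedback inhibitors Socs1, Socs3 and Cish, and the response genes Il4i1 and Fcer2a. They were found in the feature list by symbol. The mice were C57BL/6J, 8 weeks old and immunized with SRBC, which are red blood cells of sheep and are given to raise germinal centers. Gene expression was measured from transcript 3′ ends in droplets, in 2 libraries of 1 group. All cells share strain, age and immunization, so the comparisons are between cell states inside each library. The sources used here give neither the sort gate nor the number of animals behind each library. The p-values set a difference between classes against how that difference varied between these 2 libraries, with the spread shared across genes. That spread may be technical.

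IL-4 and IL-21 are made in the germinal center mainly by follicular helper T cells and act on B cells next to them. IL-4 binds a receptor of Il4ra and the common gamma chain encoded by Il2rg, and signals chiefly through STAT6. IL-21 binds Il21r with the same gamma chain and signals chiefly through STAT3. Socs1, Socs3 and Cish encode inhibitors that are induced by STAT signalling and dampen it. In B cells IL-4 is known to raise Fcer2a, which encodes the low-affinity IgE receptor CD23, and Il4i1, which encodes a secreted amino acid oxidase, and to direct switching to IgG1.

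Il4ra (ENSMUSG00000030748, chromosome 7, 125552120 to 125579474) and Il21r (ENSMUSG00000030745, chromosome 7, 125603429 to 125633570) are neighbours on the plus strand of mm10 in GENCODE release M21. They lie 23955 bp apart, with 0 genes wholly between them. Il4i1 (ENSMUSG00000074141) spans 44816387 to 44840809 of the same chromosome. It overlaps Nup62 on its own strand, and a Tbc1d17 exon on the other strand covers its promoter. Il2rg lies wholly within the span of the protein-coding gene Gm20489 on its own strand. Reads shared by the 2 genes may be missing from the Il2rg counts, which was not tested. Il4ra, Stat3 and Stat6 overlap Gm44876, Stat5a and Nab2 on the other strand. Fcer2a (ENSMUSG00000005540) lies on the minus strand of chromosome 8 at 3681737 to 3694175. RefSeq promoter windows on GRCm38.p6, each 250 bases before and 50 after a start, were found for all 10 members, 12 windows in all. They were searched for the palindromes TTCNNNGAA and TTCNNNNGAA, the spacings known for STAT sites and, with the longer gap, for STAT6; each reads the same on both strands, and a window can hold both. Either motif was found in 3 of the 12 windows, of Fcer2a, Socs3 and Cish, and in 14.6% of all 32851 windows (8.30% for the shorter and 6.95% for the longer). A match is a description of letters, not of binding. The sequences below show the upstream parts, cut to the longest stretch outside annotated exons, of the receptor neighbours, of Fcer2a at the start outermost in the gene and at the start with a match, and of Socs3. Matches are in capitals, sequences run 5′ to 3′ on the gene's strand, and the Il4i1 and Cish windows lie wholly in exons and are not shown.
Il4ra, chr7:125552021-125552119, plus strand: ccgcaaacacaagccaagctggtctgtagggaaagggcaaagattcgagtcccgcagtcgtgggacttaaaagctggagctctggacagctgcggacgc
Il21r, chr7:125603179-125603428, plus strand: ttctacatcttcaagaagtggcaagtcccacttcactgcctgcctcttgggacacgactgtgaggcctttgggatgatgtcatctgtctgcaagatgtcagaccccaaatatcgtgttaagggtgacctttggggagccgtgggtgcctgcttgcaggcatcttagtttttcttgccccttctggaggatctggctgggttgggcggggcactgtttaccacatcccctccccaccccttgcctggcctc
Fcer2a, chr8:3694176-3694424, minus strand, outermost start: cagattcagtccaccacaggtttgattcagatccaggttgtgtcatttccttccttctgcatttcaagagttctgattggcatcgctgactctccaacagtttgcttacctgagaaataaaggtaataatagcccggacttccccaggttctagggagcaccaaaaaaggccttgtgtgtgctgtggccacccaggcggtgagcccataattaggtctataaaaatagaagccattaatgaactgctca
Fcer2a, chr8:3690862-3691111, minus strand, intron start: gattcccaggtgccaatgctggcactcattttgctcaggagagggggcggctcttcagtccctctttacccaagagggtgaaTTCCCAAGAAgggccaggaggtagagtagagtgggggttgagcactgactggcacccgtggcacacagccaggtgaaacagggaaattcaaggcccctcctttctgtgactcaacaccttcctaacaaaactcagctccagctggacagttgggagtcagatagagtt
Socs3, chr11:117969452-117969616, minus strand: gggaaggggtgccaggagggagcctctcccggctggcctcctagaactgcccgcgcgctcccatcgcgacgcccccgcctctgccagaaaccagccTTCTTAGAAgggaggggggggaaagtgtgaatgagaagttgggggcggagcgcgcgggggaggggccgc
In Fcer2a the match TTCCCAAGAA begins 168 bases before the start inside the gene, and the outermost start had none in its window. Socs3 holds TTCTTAGAA at 154 bases before its start. Neither receptor window held a match.

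The libraries hold 75121538 and 61874342 counts of unique molecular identifiers (UMIs, each marking 1 captured RNA molecule). A barcode was kept with 500 or more genes, 1000 or more UMIs and no more than 20% of UMIs from mitochondrial genes, and those kept numbered 5142 of 8765 in library 1 and 3526 of 7868 in library 2, with median depths of 8183.5 and 8243 UMIs. The libraries shared 9 kept barcode sequences. Scrublet called 0 doublets in each, which in libraries of this size means that the call failed, so doublets were not removed and their share is unknown. Mef2b, a transcription factor of germinal center B cells, stood at 303 and 301 UMIs per 1000000 UMIs of the library (CPM). Of the same marker list Bcl6 stood at 110 and 99.6 CPM and Fas at 74.9 and 74.5 CPM. Genes listed for other B lineage cells were also present. Jchain of the plasmablast list stood at 604 and 657 CPM, with Prdm1 of that list at 1.75 and 1.28 CPM. Fcmr of the naive list stood at 146 and 174 CPM. Of the T cell list the defining gene Cd3e stood at 0 and 0.0970 CPM. Lck, which carried nearly all of the list's sum, stood at 53.7 and 60.2 CPM. The cytokine genes themselves were nearly undetected: Il4 had 10 and 1 UMIs in all, Il21 had 1 and 0, and Il13 had 0 and 2.

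Fcer2a was read from 7631 and 5126 UMIs, or 130 and 124 CPM, and Il4i1 from 4224 and 3948 UMIs, or 71.7 and 95.7 CPM. Il21r stood at 109 and 115 CPM, Il4ra at 73.6 and 69.6, Stat3 at 68.2 and 65.1, Il2rg at 36.4 and 33.5 and Stat6 at 31.7 and 32.0 CPM. Socs1, an inhibitor of JAK kinases, stood at 11.7 and 14.3 CPM. Each of these 8 genes differed by less than 1.5 times between the libraries. Socs3 had only 100 and 86 UMIs, in 35 and 42 barcodes, and 1 barcode alone held 13. Cish had 2 and 9 UMIs and was too low for any test, so 9 of the 10 members were tested.

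In the light zone germinal center B cells are selected through antigen and helper T cells, and in the dark zone they divide and mutate their antibody genes. After thinning of every cell to 3400 UMIs, cells with Cd83 or Cd86 UMIs (1 or more) but no Cxcr4 UMI formed the light zone gate, and cells with Cxcr4 UMIs but neither of the others the dark zone gate. The gates use no member and held 1666 and 1183 light and 792 and 494 dark cells. Light zone gate cells had higher levels of 8 of 8 tested members other than Socs3 by edgeR's quasi-likelihood test with Benjamini-Hochberg adjustment under 0.05, where 29.0% of the 10710 genes tested were called, 15.4% higher and 13.5% lower. The median log2 fold change of these 8 was 0.66, against -0.00 over all genes tested. Socs3 was also called, but it passed the filter on low counts only through the light zone gate and is given apart.

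Among these 8 the response genes Il4i1 and Fcer2a had the largest differences. Il4i1 stood at 147 and 200 CPM in the light zone gate and at 16.2 and 21.7 CPM in the dark zone gate. Every light zone value was thus several times every dark zone value. The log2 fold change was 3.19 ± 0.07 (SE), or 9.11-fold, with an edgeR adjusted p of 1.78e-24. Reads of Nup62 and Il4i1 in their shared stretch lie on the same strand, and those of Tbc1d17 can be told apart only by counting that uses the strand, which was not stated. Nup62 differed by 0.04 ± 0.06 (edgeR adjusted p = 0.712) and Tbc1d17 by 0.02 ± 0.09 (edgeR adjusted p = 0.908) on the log2 scale, and neither passed the test. Fcer2a stood at 209 and 206 CPM against 61.6 and 52.7 CPM. Its light values were nearly equal in the libraries and lay far above its dark values (log2 fold change 1.84 ± 0.06, SE; 3.58-fold; edgeR adjusted p = 1.00e-20).

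Of the receptor chains, Il2rg, the gamma chain common to both receptors, stood at 48.0 and 46.2 CPM in light and 27.7 and 21.4 CPM in dark zone gate cells (log2 fold change 0.91 ± 0.09, SE, edgeR adjusted p = 1.92e-09). Il21r stood at 138 and 151 CPM against 88.2 and 85.5 CPM, which gave 0.72 ± 0.06 on the log2 scale (SE, edgeR adjusted p = 2.40e-11). Il4ra, the ligand-binding chain for IL-4, stood at 85.0 and 81.7 against 63.7 and 55.7 CPM, a smaller difference of 0.47 ± 0.06 on the log2 scale (SE, edgeR adjusted p = 1.41e-06). For all 3 chains both light zone values lay above both dark zone values, as a description without the share of all genes that did so.

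Stat6 and Stat3, which carry the IL-4 and IL-21 signals, showed smaller differences in the same direction. Stat6 stood at 37.5 and 37.9 against 27.3 and 23.6 CPM (log2 fold change 0.54 ± 0.09, SE, edgeR adjusted p = 1.98e-05). Stat3 stood at 78.5 and 73.8 against 58.7 and 60.6 CPM, the smallest log2 fold change of the tested members at 0.35 ± 0.07 (SE, edgeR adjusted p = 9.63e-05). Socs1 stood at 13.9 and 17.9 against 8.18 and 13.1 CPM, with a narrow gap between the lower light and the higher dark value (log2 fold change 0.60 ± 0.13, SE, edgeR adjusted p = 0.000719). Socs3, an inhibitor known for acting on STAT3 signals, had 75 and 68 UMIs in light zone gate cells against 0 and 2 in dark zone gate cells. The pooled ratio was 32.4-fold, with an exact 95% interval of 8.82 to 270.5 that covers counting error only. In library 2 alone it was 14.1-fold (3.75 to 118.6), and library 1, with a dark zone count of 0, gave only a lower limit of 9.58. The light zone UMIs of Socs3 lay in 20 and 27 barcodes, of which 1 barcode in each library held 13 and 10. Cish had 1 and 6 UMIs in light zone gate cells and 0 among dark zone gate cells of each library.

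**Figure D1:**
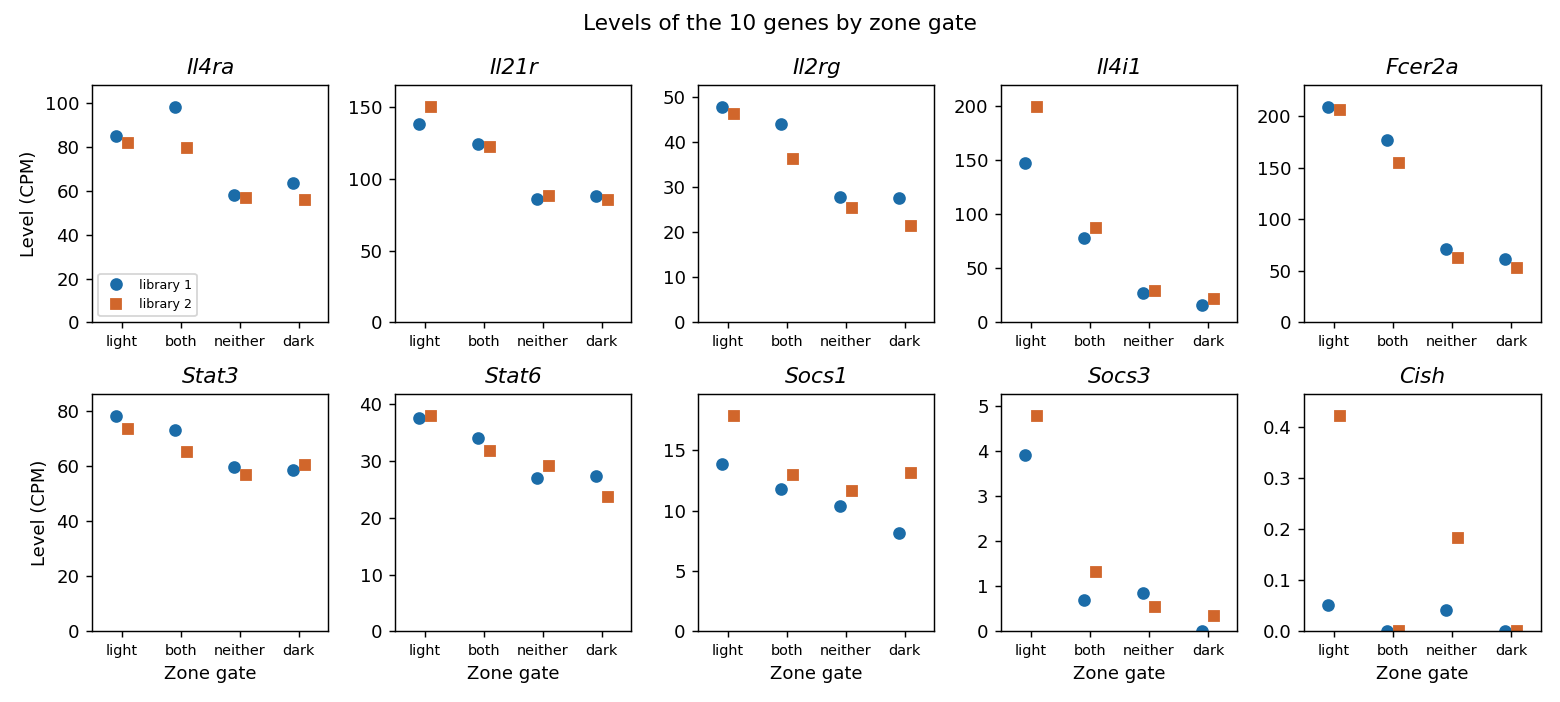
Level of each of the 10 genes in CPM (y axes start at 0 and differ between panels) in cells of the light zone gate, both signals, neither signal and the dark zone gate, with 1 point per library. Il4i1 and Fcer2a have both light zone points far above both dark zone points, and the cells with neither signal sit near the dark zone gate.

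Cells with both gate signals and with neither filled in the order. Il4i1 stood at 78.0 and 87.8 CPM in cells with both signals and 27.5 and 29.4 CPM in cells with neither, so its 4 classes did not overlap from light to dark. Fcer2a followed with 177 and 154 CPM and then 70.8 and 62.4 CPM, the lower of which lay just above the higher dark zone value of 61.6 CPM. Il4ra was different: cells with both signals held 98.4 and 79.4 CPM, a range that enclosed the light zone values. Il4ra, Il21r, Il2rg, Stat3, Stat6 and Socs1 did not separate cells with neither signal from the dark zone gate beyond the spread of the libraries.

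With phase as a term in the fit the 8 tested members other than Socs3 kept an adjusted p under 0.05 (edgeR, Benjamini-Hochberg). Socs3 did as well, but it is high only in the light zone gate, so its call is a description only. Over the settings tried, from 436 to 3619 genes in all were called between zones, and this fit lies in that range. The share of all genes called in this fit alone is not given here, so the member count has only that range as background. The log2 fold changes with phase as a term were 2.86 for Il4i1, 1.63 for Fcer2a and 0.28 for Il4ra. The Il4i1 and Fcer2a calls held in each alternative processing tried. Those of Stat3 and Socs1 were lost with DESeq2 (adjusted p = 0.0804 and 0.253), as was that of Socs1 with gates of 2 UMIs (edgeR adjusted p = 0.320). Without the pairing by library, those of Il4ra, Stat3 and Socs1 were lost (edgeR adjusted p = 0.0640, 0.120 and 0.167). The summed T cell list stood at 76.4 and 86.9 CPM in light and 37.7 and 40.4 CPM in dark zone gate cells, with Cd3e at 0 in all 4 classes and 3 to 5 of 7 genes with a UMI. The summed naive B cell list without Ighd stood at 243 and 302 against 170 and 188 CPM, and its part in the Fcer2a difference was not tested. In cells gated on at least 3 germinal center markers and fewer than 3 naive markers, the Fcer2a difference was 1.92 on the log2 scale.

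Other genes of these pathways were counted in fixed lists in the same comparison. Of the receptor chains for related cytokines, 4 of 9 tested were higher in the light zone gate and none lower by edgeR. Il10rb, shared by the IL-10 receptor family, stood at 12.2 ± 1.65 against 6.97 ± 0.716 CPM (SD, n = 2). At low levels, Il27ra stood at 3.16 ± 0.0926 against 0.756 ± 0.612 and Il2rb at 2.35 ± 0.752 against 0.532 ± 0.448 CPM (SD, n = 2). Like Socs3, Il27ra and Il2rb passed the filter on low counts only through the light zone gate, so their calls are a description only. Of kinases and STATs, 5 of 9 were higher and 1 lower. Jak3, the kinase bound to the common gamma chain, had a log2 fold change of 0.74 ± 0.12 and Stat5a one of 0.48 ± 0.10, whereas Stat5b had -0.35 ± 0.09 (SE). Among negative regulators 3 of 12 were higher and 1 lower, led by the phosphatase gene Ptpn6 at 0.59 ± 0.04 (SE). Among the listed targets 6 of 12 were higher and 4 lower. Batf, a transcription factor downstream of IL-21, rose by 2.05 ± 0.09 on the log2 scale and Irf4 by 1.82 ± 0.15, while Irs2, Bcl6 and Pim1 were among the lower genes. Their medians were 0.55 for receptor chains, 0.18 for kinases and STATs, 0.08 for negative regulators and 0.57 for targets.

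Within the light zone gate, transcripts of Il4i1 were concentrated in few cells. At 3400 UMIs per cell the 167 and 119 cells with most Il4i1, the top 10% of the gate, held 66.4% and 62.2% of its UMIs. The highest cell held 12 and 18 Il4i1 UMIs, while the median cell held 0. Fcer2a was spread more evenly by the same measure, at 46.0% and 48.6%, and Il21r at 41.3% and 42.7%. These shares depend on each gene's mean, which was 0.598 and 0.802 UMIs for Il4i1, 0.914 and 0.899 for Fcer2a and 0.567 and 0.560 for Il21r.

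Myc marks light zone cells that have received help and are about to divide. The light zone gate was split into cells in which Myc was detected after thinning (103 and 97 cells) and the rest (1563 and 1086). By edgeR 5 of 9 tested members were called, 4 higher and 1 lower, where 14.4% of the 10167 genes tested were called, 8.81% higher and 5.56% lower. The members' median log2 fold change was 0.44, against -0.01 over all genes tested.

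Il4i1 stood at 387 and 443 CPM in Myc-detected cells and at 129 and 172 CPM in Myc-undetected cells. Both detected values lay above both undetected values (1.5 ± 0.10 on the log2 scale, SE, edgeR adjusted p = 2.41e-49). Fcer2a stood at 268 and 306 against 205 and 194 CPM (log2 fold change 0.56 ± 0.10, SE, edgeR adjusted p = 8.96e-07). Il2rg stood at 60.6 and 61.3 against 47.0 and 44.5 CPM (log2 fold change 0.44 ± 0.14, SE, edgeR adjusted p = 0.0177). Il4ra went the other way, at 60.6 and 62.6 against 86.9 and 84.0 CPM, with no overlap of the values (log2 fold change -0.44 ± 0.14, SE, edgeR adjusted p = 0.0125). Il21r, at 154 and 182 against 137 and 147 CPM, did not pass the test (edgeR adjusted p = 0.0770). Neither did Stat3 (0.31 ± 0.13), Stat6 (0.29 ± 0.16) and Socs1 (0.45 ± 0.22, log2 fold change and SE).

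The Socs3 difference rested on library 2. There 34 of the 68 light zone UMIs lay in Myc-detected cells, in 9 barcodes, whereas library 1 had 5 UMIs in 2 Myc-detected barcodes. Its log2 ratio was -0.00 in library 1 and 3.09 in library 2, for a fitted 1.97 ± 0.35 (SE, edgeR adjusted p = 1.30e-06). Cish had 4 UMIs in Myc-detected cells of library 2 and 0 in those of library 1.

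Myc-detected cells had lower mitochondrial shares, with medians of 11.4% and 10.2% against 13.1% and 12.9%. Il4ra itself stood at 48.8 and 47.7 CPM in barcodes of at most 10% mitochondrial UMIs and at 97.6 and 95.8 CPM in barcodes of 10% to 20%. The Il4ra difference was 0.00 on the log2 scale at a 10% mitochondrial limit (edgeR adjusted p = 0.997), -0.34 with the mitochondrial stratum as a term (edgeR adjusted p = 0.0541), -0.49 with phase as a term (edgeR adjusted p = 0.00143) and -0.80 on gates without thinning (edgeR adjusted p = 1.71e-14). On gates without thinning the Il4i1 difference was 0.87, and those of Fcer2a (0.08, edgeR adjusted p = 0.392) and Il2rg (0.06, edgeR adjusted p = 0.685) were no longer called. DESeq2 called neither Il4ra (adjusted p = 0.297) nor Il2rg (adjusted p = 0.343). Nup62, which overlaps Il4i1, was itself higher in Myc-detected cells by 0.50 ± 0.12 on the log2 scale (edgeR adjusted p = 0.000680).

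Among the pathway lists, the Myc comparison called 1 of 8 receptor chains, 1 of 9 kinases and STATs, 1 of 13 negative regulators and 8 of 12 targets. Il2ra, the inducible chain of the IL-2 receptor, stood at 3.84 ± 1.63 against 0.690 ± 0.0236 CPM (SD, n = 2). It passed the filter on low counts only through the Myc-detected cells, so its call is a description only. Stat5a stood at 53.6 ± 4.21 against 28.0 ± 3.12 CPM (SD, n = 2). The targets comprised 6 higher and 2 lower genes. Irf4 rose by 1.99 ± 0.16, Batf by 1.96 ± 0.11 and the survival gene Bcl2l1 by 1.70 ± 0.18 on the log2 scale (SE), while Bcl6 was among the lower genes. Pim1, lower in the light than in the dark zone gate, was higher in Myc-detected cells, at 476 ± 8.96 against 251 ± 10.9 CPM (SD, n = 2).

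**Figure D2:**
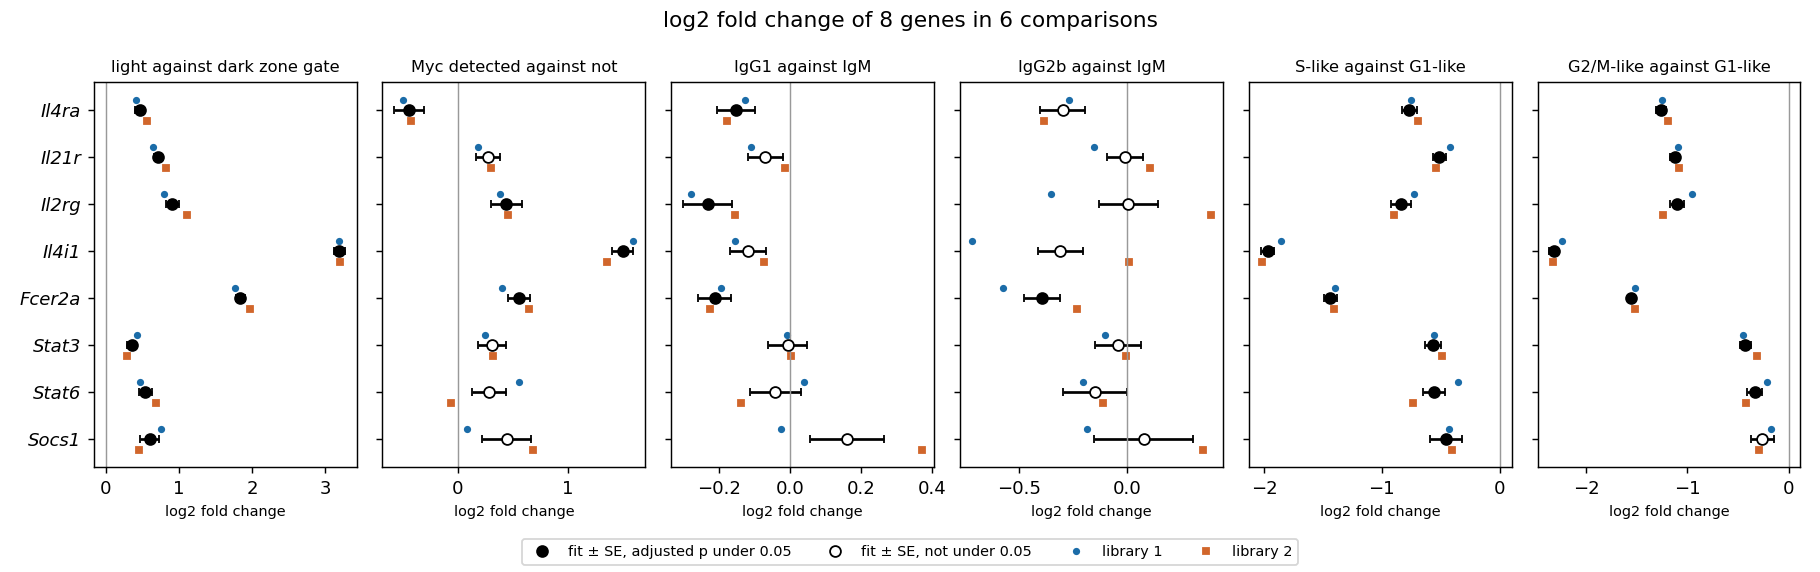
Fitted log2 fold change with its SE (large points, filled where the edgeR adjusted p is under 0.05) and the log2 ratio in each library (small points) of 8 genes in 6 comparisons, with x axes that differ between panels. Il4i1 and Fcer2a lie farthest from 0 in the zone and phase panels, and Il4ra is the 1 gene of the 8 that lies below 0 with an adjusted p under 0.05 in the Myc panel.

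Isotypes were compared because IL-4 is known to direct switching to IgG1. A cell's isotype was called from at least 5 heavy chain constant region UMIs with at least 80% of 1 class, which gave 1775 and 1323 IgM, 1735 and 1125 IgG1 and 193 and 141 IgG2b cells. Against IgM cells, 3 of 9 tested members were called in IgG1 cells by edgeR, all lower, where 14.6% of the 11163 genes tested were called, 6.14% higher and 8.47% lower. The members' median log2 fold change was -0.07, against 0.01 over all genes tested. These differences were small beside those between zones.

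Fcer2a stood at 125 and 117 CPM in IgG1 cells and 141 and 136 CPM in IgM cells (log2 fold change -0.21 ± 0.05, SE, edgeR adjusted p = 0.000132). Il2rg stood at 32.7 and 30.7 against 39.2 and 34.0 CPM (-0.23 ± 0.07, edgeR adjusted p = 0.00931). Il4ra stood at 71.5 and 65.3 against 77.1 and 73.4 CPM (-0.15 ± 0.05, edgeR adjusted p = 0.0336). In each of these 3 genes both IgG1 values lay below both IgM values. The share of all genes separated in this way is not given here, so this is a description only. Il4i1 stood at 70.7 and 91.5 against 77.5 and 95.8 CPM and did not pass the test (edgeR adjusted p = 0.109), nor did Il21r, Stat3, Stat6, Socs1 and Socs3.

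None of the 3 calls was found with DESeq2 (adjusted p from 0.138 to 0.932), and with phase as a term only that of Il2rg remained (edgeR adjusted p = 0.0480), with Il4ra at 0.256 and Fcer2a at 0.0937. G1-like cells made up 27.0% and 24.9% of IgM and 22.2% and 18.9% of IgG1 cells. The naive B cell list without Ighd, which the isotype rule reads, summed to 273 and 323 CPM in IgM and 158 and 178 CPM in IgG1 cells. Barcodes of at most 10% mitochondrial UMIs made up 34.5% and 37.8% of IgM and 23.6% and 29.9% of IgG1 cells, and at that limit the Il4ra difference was -0.27 (edgeR adjusted p = 0.00678). In the germinal center marker gate Fcer2a kept its call at -0.18 (edgeR adjusted p = 0.00414) and Il2rg did not (-0.17, edgeR adjusted p = 0.151).

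IgG2b cells gave 2 member calls against IgM cells, where 2.49% of the 10485 genes tested were called (1.06% higher and 1.43% lower), and 1 call against IgG1 cells, where 0.98% of the 10204 genes tested were called (0.686% higher and 0.294% lower). Both sets of comparisons share the IgG2b cells. Fcer2a stood at 97.5 and 119 CPM in IgG2b cells, below both IgM values (log2 fold change -0.39 ± 0.08, SE, edgeR adjusted p = 0.000881). These values overlapped those of IgG1 cells. Socs3 stood at 5.37 and 6.87 CPM, against 1.21 and 1.72 in IgM and 1.43 and 1.84 CPM in IgG1 cells, with edgeR adjusted p = 0.000544 and 0.00419. Those IgG2b values came from 13 UMIs in 1 barcode of library 1 and 12 UMIs in 4 barcodes of library 2. DESeq2 called 0 members in either comparison, and edgeR without adjustment had 4 and 2 members with p under 0.05. The share of all genes under that unadjusted threshold was not counted, so these counts cannot be set against a background.

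In the lists, IgG1 cells had 1 receptor chain of 9 higher (Il6ra) and 3 lower than IgM cells. Il10ra, the ligand-binding chain for IL-10, stood at 7.93 ± 0.355 against 14.4 ± 1.42 CPM and Il10rb at 5.99 ± 0.801 against 11.6 ± 2.78 CPM (SD, n = 2). Of kinases and STATs 2 of 9 were lower, Jak1 by a log2 fold change of -0.16 ± 0.05 and Stat4 by -0.45 ± 0.14 (SE). None of 13 negative regulators was called by edgeR. Of 12 targets 2 were higher, Batf and Nfil3, and 5 lower, among them Pim1 (-0.34 ± 0.04), Irf4 (-0.59 ± 0.11) and the class II gene H2-Aa (-0.28 ± 0.04, log2 fold change and SE). Their medians were -0.45 for receptor chains, -0.09 for kinases and STATs, 0.02 for negative regulators and -0.14 for targets.

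The zone difference of each member was also compared between IgG1 and IgM cells by an interaction term. By edgeR 0 of 9 tested members were called, where 0.0815% of the 9819 genes tested were called (0.0204% higher and 0.0611% lower). Socs3, among the 9, had 0 UMIs in dark zone gate cells of both isotypes in each library. Its term could not be estimated, so its lack of a call carries no information. Without adjustment 1 member had an edgeR p under 0.05, and the share of all genes under that threshold was not counted. DESeq2 called 0. The difference of differences was 0.33 ± 0.15 for Il4ra (edgeR adjusted p = 0.444) and 0.29 ± 0.15 for Fcer2a (edgeR adjusted p = 0.518, log2 scale, SE). For Il4i1 it was 0.30 ± 0.24, with 0.60 in library 1 and -0.08 in library 2. Il4i1 stood at 157 and 208 CPM in IgG1 and at 151 and 183 CPM in IgM cells of the light zone gate, and at 11.1 and 23.3 against 16.6 and 19.4 CPM in the dark zone gate. The IgG1 and IgM values overlapped in both gates.

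Cell cycle states were called from scores of S and G2/M gene lists, so a state is a range of a score and not DNA content, and 1271 and 849 cells lay near a boundary. There were 1187 and 699 G1-like, 1178 and 831 S-like and 2312 and 1605 G2/M-like cells. Against G1-like cells, 8 of 9 tested members were called lower in S-like cells by edgeR, where 58.2% of the 10546 genes tested were called, 29.8% higher and 28.5% lower. In G2/M-like cells 7 of 9 were called lower, where 55.7% of the 11114 genes tested were called, 28.0% higher and 27.8% lower. The members' median log2 fold changes were -0.57 and -1.10, against -0.02 and -0.02 over all genes tested.

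Il4i1 stood at 213 and 306 CPM in G1-like, 54.0 and 72.1 in S-like and 42.4 and 57.7 CPM in G2/M-like cells. Its G1-like values lay far above the others, and S-like and G2/M-like values overlapped. The log2 fold change against G1-like cells was -1.97 ± 0.06 in S-like and -2.32 ± 0.04 in G2/M-like cells (SE, edgeR adjusted p = 7.00e-236 and 5.03e-28). Of the genes overlapping Il4i1, Tbc1d17 was also lower in G2/M-like cells, by -0.43 ± 0.08 (log2 fold change, SE, edgeR adjusted p = 2.14e-05). Nup62 was higher there, by 0.80 ± 0.06 (edgeR adjusted p = 3.40e-13). The part of their reads in the Il4i1 difference was not tested. Fcer2a stood at 290 and 283, then 102 and 101, then 95.8 and 93.3 CPM. Its fall of -1.44 ± 0.05 and -1.55 ± 0.04 was the next largest of the tested members (log2 fold change, SE). Il4ra fell in steps from 137 and 126 over 74.6 and 73.8 to 54.3 and 52.0 CPM, and Il21r from 182 and 196 over 125 and 129 to 80.5 and 87.5 CPM. In both receptor genes the 3 states did not overlap, as a description without the share of all genes for which this held.

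Il2rg, the common gamma chain, was lower in both states. It stood at 62.2 and 65.2 CPM in G1-like, 34.5 and 33.3 in S-like and 30.4 and 26.2 CPM in G2/M-like cells. Stat3 had log2 fold changes of -0.57 ± 0.07 in S-like and -0.43 ± 0.05 in G2/M-like cells, and Stat6 of -0.55 ± 0.09 and -0.33 ± 0.08 (SE). Socs1 was called in S-like (-0.45 ± 0.14, edgeR adjusted p = 0.00235) and not in G2/M-like cells (-0.26 ± 0.12, edgeR adjusted p = 0.0570). Socs3 was called in neither. DESeq2 did not call Socs1 in S-like cells (adjusted p = 0.268) or Stat6 in G2/M-like cells (adjusted p = 0.0922).

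CPM is a share of a cell's RNA, and the states differed in depth. S-like barcodes held 1.88 and 1.77 times and G2/M-like barcodes 2.03 and 2.0 times the mean UMIs of G1-like barcodes. Counted as UMIs per barcode, Il4i1 was still lower in G2/M-like than in G1-like cells, at -1.36 on the log2 scale, and Fcer2a at -0.59, in both libraries. Il4ra (-0.29), Il21r (-0.16) and Il2rg (-0.17) came closer to 0. Stat3 (0.55), Stat6 (0.61) and Socs1 (0.69) were higher per barcode, so that their direction depends on the scale. In S-like cells Il4i1 (-1.17) and Fcer2a (-0.63) were again lower per barcode, whereas Il4ra (0.04), Il21r (0.29), Stat3 (0.24), Stat6 (0.23) and Socs1 (0.35) changed sign.

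**Figure D3:**
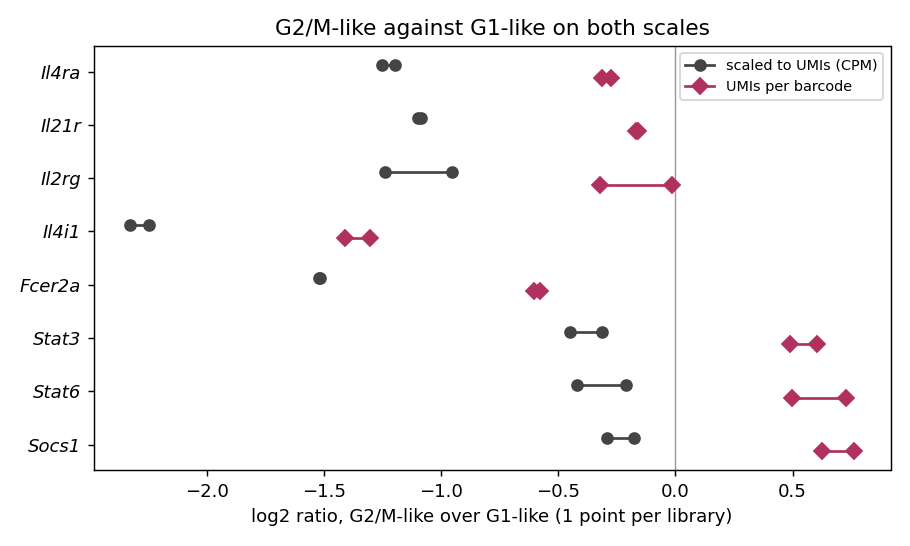
log2 ratio of G2/M-like over G1-like cells for 8 genes, as CPM (circles) and as UMIs per barcode (diamonds), with 1 point per library joined by a line. Il4i1 and Fcer2a lie below 0 on both scales, and Stat3, Stat6 and Socs1 change sign between them.

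Summed marker lists of other cell types were higher in G1-like cells. The naive list without Ighd summed to 385 and 489 CPM in G1-like and 180 and 213 CPM in G2/M-like cells, and the macrophage list to 56.0 and 19.1 against 5.80 and 6.41 CPM. The T cell list, nearly all Lck over all kept cells, summed to 92.9 and 117 against 45.0 and 51.1 CPM. Over all kept cells Fcmr, at 146 and 174 CPM, was the largest part of the naive list. The part of these lists in the result was not tested. Light zone gate cells made up 50.8% and 54.4% of G1-like and 27.4% and 29.2% of G2/M-like cells. With zone as a term the G2/M-like log2 fold changes were -1.76 for Il4i1, -1.24 for Fcer2a and -1.23 for Il4ra (edgeR adjusted p = 6.76e-24, 2.19e-21 and 5.32e-20). Of the lists, receptor chains had 4 of 8 lower in S-like and 5 of 9 in G2/M-like cells, and kinases and STATs 8 of 9 and 7 of 9, on the CPM scale. Jak1 was lower in G2/M-like cells in CPM (-0.62) and higher per barcode (0.34, log2).

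Zone and phase were then crossed into 12 classes per library. Il4i1 was highest in G1-like light zone gate cells at 318 and 458 CPM and lowest in S-like dark zone gate cells at 11.7 and 8.70 CPM. Inside G1-like cells alone Il4i1 stood at 47.5 and 60.9 CPM in the dark zone gate, and Fcer2a at 369 and 367 CPM in light against 153 and 104 CPM in dark zone gate cells. Neither gene overlapped between the gates within any of the 3 states, and the share of all genes for which this held is not given here. Il21r also kept its zone difference inside each state, with 97.2 and 118 against 65.2 and 64.7 CPM in G2/M-like cells. Il4ra did not: in G1-like cells it stood at 138 and 125 CPM in the light and 141 and 98.5 CPM in the dark zone gate, which overlap. In S-like cells Il4ra stood at 84.5 and 88.4 against 63.7 and 51.5 CPM, and in G2/M-like cells at 59.9 and 59.6 against 51.8 and 51.1 CPM, without overlap.

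**Figure D4:**
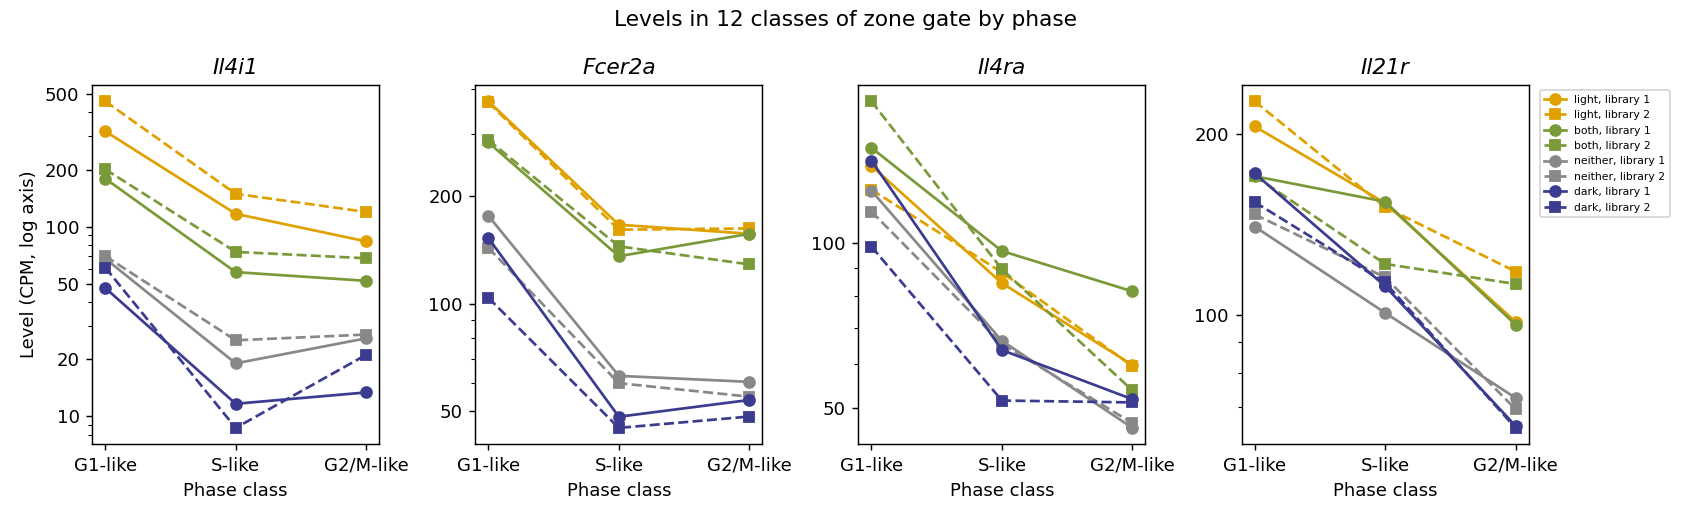
Levels of Il4i1, Fcer2a, Il4ra and Il21r in CPM (log axes that differ between panels) over G1-like, S-like and G2/M-like cells, with 1 line per zone gate class and library. Il4i1 and Fcer2a separate light from dark zone gate cells in every state, whereas the Il4ra points of these gates overlap in G1-like cells.

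Over these 12 classes the log2 levels of Il4i1 and Fcer2a had a Pearson r of 0.97 in each library. The classes share libraries, depth and gates, so the value is a description. Il4ra and Il21r, neighbours in the genome, had r of 0.91 and 0.82, and Il4ra and Il4i1 0.71 and 0.73. Among 5549 genes, those most like Il4i1 by the lower of the libraries' r were Ptpn6 (0.97), Fcer2a (0.97), H2-Aa (0.96), H2-DMb2 (0.96) and Cd52 (0.96). Those most like Fcer2a were H2-DMb2 (0.98), Il4i1 (0.97), H2-Ab1 (0.96), Ly86 (0.96) and Sorl1 (0.95). The genes nearest to Il4ra were others: Fnbp1 (0.95), Sh3bgrl3 (0.95), Vav2 (0.95), Arpc1b (0.94) and Fcmr (0.94).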

How the data were processed

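Counts of UMIs per gene and barcode were deposited by the authors as matrices of Cell Ranger 3.0.2 (per the file headers). The submitters' processing notes name mm10. Neither the annotation nor the strand setting is given in the sources used here. The members and all gene lists were chosen with earlier results of these data known. All 10 members are named, and from each pathway list up to 4 called genes with the lowest adjusted p per comparison. Other genes named to spell out a small count were chosen after their values were seen. Some listed genes are counted but not reported here by name.

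Raw counts were summed per library and cell class and tested with edgeR 4.0.16 (quasi-likelihood, TMM, filterByExpr, library as a block because both classes come from the same library), adjusting over all genes tested (Benjamini-Hochberg, threshold 0.05). The 4 sums leave 1 residual degree of freedom, so the spread is shared across genes. The script was tested on simulated data. Thinning to 3400 UMIs left 465 and 391 shallower cells out of gates and phases (scanpy 1.11.5). Only 1 gate UMI was found in 845 and 559 light and 621 and 380 dark zone gate cells. No isotype was called in 313 and 216 cells with too few heavy chain UMIs, and 1126 and 721 had a mixed or other class. Alternatives were mitochondrial limits of 10% and 40%, no thinning, removal of the highest 6% of doublet scores, a germinal center marker gate, gates of 2 UMIs, Myc split in all barcodes, DESeq2 1.42.0, RLE scaling, no filter, no block, phase or zone as a term and each library alone; UMIs per barcode and a mitochondrial stratum term were added after seeing the data.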

Additional observations from a re-analysis of the deposited data

How the results depend on the processing

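Calls between zones and phases held most widely, and those between isotypes least. Pairing rests on both classes of a comparison coming from the same library. Without the replicate block the members called were 6 between zones, 0 for IgG1 against IgM, 0 for IgG2b against IgM, 0 for IgG2b against IgG1, 3 for Myc, 7 for S-like, 6 for G2/M-like cells and 0 for the zone by isotype term. With DESeq2 the isotype comparisons gave 0, 0 and 0 and Myc 2. With phase as a term they gave 1 for IgG1 against IgM, 1 for IgG2b against IgM and 0 for IgG2b against IgG1, and with zone as a term 1, 0 and 0. IgG2b against IgM gave 1 at a mitochondrial limit of 10% and 1 with the mitochondrial stratum as a term, which gave 0 for IgG2b against IgG1. The germinal center marker gate gave 3 for Myc. All genes called ranged from 436 (no block) to 3619 (mitochondrial limit of 40%) around 3103 between zones. For IgG1 against IgM they ranged from 113 (no block) to 3638 (mitochondrial limit of 40%) around 1631. IgG2b against IgM had from 8 (no block) to 279 (RLE scaling) around 261. IgG2b against IgG1 had from 2 (no block) to 781 (mitochondrial limit of 40%) around 100. For Myc the range was 308 (DESeq2) to 5012 (no thinning) around 1461. S-like cells had from 2999 (DESeq2) to 6947 (mitochondrial limit of 40%) around 6142. G2/M-like cells had from 3382 (no block) to 6413 (mitochondrial limit of 40%) around 6196. The zone by isotype term had from 0 to 40 (no filter) around 8. The share of all genes is not printed for every setting, so the other member counts have only these ranges as background.

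On the log2 scale these directions turned. At a mitochondrial limit of 10%, Il4ra in the Myc comparison went to 0.00191, Socs4 between zones to 0.0491 and Ptpn2 in S-like cells to -0.00074. Without replicate 2, Socs3 in the Myc comparison went to -0.00406, and without replicate 1 to 3.09. Per barcode, S-like cells gave 0.0442 for Il4ra, 0.29 for Il21r, 0.24 for Stat3, 0.23 for Stat6, 0.35 for Socs1, 0.38 for Jak1, 0.43 for Ptpn6, 0.17 for H2-Aa and 0.26 for H2-Ab1. Per barcode, G2/M-like cells gave 0.55 for Stat3, 0.61 for Stat6, 0.34 for Jak1, 0.55 for Ptpn6, 0.39 for H2-Aa and 0.43 for H2-Ab1. That scale keeps the depth of a cell, which CPM removes. The cause of the other changes was not tested. Depth limits Socs3 and Cish above all, with at most 100 UMIs per library.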
